A study of Mus musculus with 16 samples.

Results

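The 10 genes described here encode proteins that shape mitochondria or mark them for removal: the fusion proteins *Mfn1*, *Mfn2* and *Opa1*, the protease *Oma1*, the fission proteins *Dnm1l*, *Fis1* and *Mff*, and the mitophagy proteins *Pink1*, *Bnip3* and *Bnip3l*. They were chosen by name, from the roles the genes are known for, out of 49066 genes with a value, and all 10 were above the expression minimum in every comparison. Brown adipose tissue (BAT) was collected from 8 male and 8 female mice on the C57BL6/J background, 4 WT and 4 KO of each sex. All were 18 weeks old and had eaten a high-fat diet (HFD) for 12 weeks, WT mice included. KO mice (GDF15 BKO) carried *Gdf15* fl/fl and Cre under the *Ucp1* promoter, and WT mice were littermates with the floxed alleles and no Cre. Recombination is therefore limited to cells that use the *Ucp1* promoter, and *Gdf15* of the other cells of the tissue stays intact by design. The labels number 4 libraries in each group and do not tie a number to an animal, so p-values measure the spread between these libraries.

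Mitochondria fuse and divide continuously. Mitofusins join outer membranes, OPA1 joins inner membranes and holds cristae in shape, and the protease OMA1 cleaves OPA1 under stress. DRP1, encoded by *Dnm1l*, is recruited by adaptors such as MFF and constricts the organelle. Damaged mitochondria are removed by mitophagy, either after PINK1 accumulates on them or through receptors of the outer membrane such as BNIP3 and NIX, the product of *Bnip3l*. In brown fat, where mitochondria are dense and oxidise fatty acids for heat, these processes are known to respond to cold and nutrient supply.

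The proximal promoters of *Bnip3* and *Opa1* are shown because these members had the highest and the lowest female log2 fold changes of the 10. RefSeq (build GRCm38.p6) gave a promoter for 9 members, in 14 windows, and the 250 bases before each start were searched on both strands for ACGTG (the core of the hypoxia response element), AAGGTCA (a site of estrogen-related receptors) and GCGCATGCGC (the NRF1 palindrome). Capitals mark a match. *Bnip3* is a known target of hypoxia-inducible factor HIF-1, and its window (chr7:138909507-138909756, minus strand) held ACGTG on both strands at overlapping letters. *Opa1* (chr16:29579084-29579333, plus strand) held the NRF1 palindrome, whose first base lies 59 bases before the start.
*Bnip3*: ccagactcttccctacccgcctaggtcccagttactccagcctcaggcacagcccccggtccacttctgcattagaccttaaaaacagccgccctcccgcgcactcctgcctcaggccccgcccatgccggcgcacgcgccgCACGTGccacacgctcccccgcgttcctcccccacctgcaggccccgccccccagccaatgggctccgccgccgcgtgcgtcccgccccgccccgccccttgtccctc
*Opa1*: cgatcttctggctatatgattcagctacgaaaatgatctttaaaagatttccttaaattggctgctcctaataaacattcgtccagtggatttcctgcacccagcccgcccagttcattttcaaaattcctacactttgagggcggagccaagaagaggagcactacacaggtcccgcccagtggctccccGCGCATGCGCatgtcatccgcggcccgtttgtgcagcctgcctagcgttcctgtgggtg
ACGTG was found in 16.6% of 32851 promoter windows of this length and, among members, in *Bnip3* and in 1 window of *Mfn2*. The palindrome was in 0.782% of the windows and, among members, in *Opa1*. AAGGTCA was in 4.08% of the windows and in no window of a member. These matches describe letters and not binding.

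Values are TPM (reads divided by transcript length and scaled to a fixed sum per library), added over the transcripts of a gene. The number of reads behind them is unknown. Between 34.5 and 59.8% of the TPM came from the mitochondrial genome. In female WT 4 a single transcript without a match in the annotation took 16.5%. *Gdf15* had 0.368 to 3.81 TPM in male WT and at most 0.272 TPM in male KO libraries, whereas female WT libraries had 0.0622 to 0.311 TPM and female KO libraries at most 0.0794 TPM. In females this is close to 0 in both genotypes and checks the labels only weakly. All 15 brown adipocyte markers were detected, and their summed level was 11195 to 22352 TPM. Because the tissue was sequenced whole, fewer cells of a type and less RNA per cell cannot be told apart.

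Averaged over the 16 libraries, *Bnip3* had the highest level of the 10 at 142 TPM and *Oma1* the lowest at 5.79 TPM. *Pink1* (131 TPM) was close to *Bnip3*. *Mfn2* followed at 89.9 TPM, then *Mff* (60.8 TPM), *Bnip3l* (57.8 TPM), *Fis1* (55.5 TPM), *Opa1* (40.0 TPM), *Mfn1* (34.9 TPM) and *Dnm1l* (16.2 TPM). The ranges over the 16 libraries overlapped between neighbours in this order of means, except for *Dnm1l* and *Oma1*, which overlapped no other member. *Mff*, *Bnip3l* and *Fis1* could not be put in order, and neither could *Bnip3* and *Pink1*. *Opa1* was below *Mfn1* in every female KO library, with means of 27.5 and 36.7 TPM there, and also in male KO 1 and female WT 1. This order depends on the transcripts counted. From protein-coding transcripts alone, *Opa1* was above *Mfn1* in every female KO library, with means of 26.9 and 17.3 TPM. All members but *Oma1* were above the median gene, which had 7.61 TPM. *Bnip3* varied most between libraries of the same group, with a mean SD of 0.35 on the log2 scale, and *Mff* least, with 0.12. The median over 12210 genes was 0.22.

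**Figure D1:**
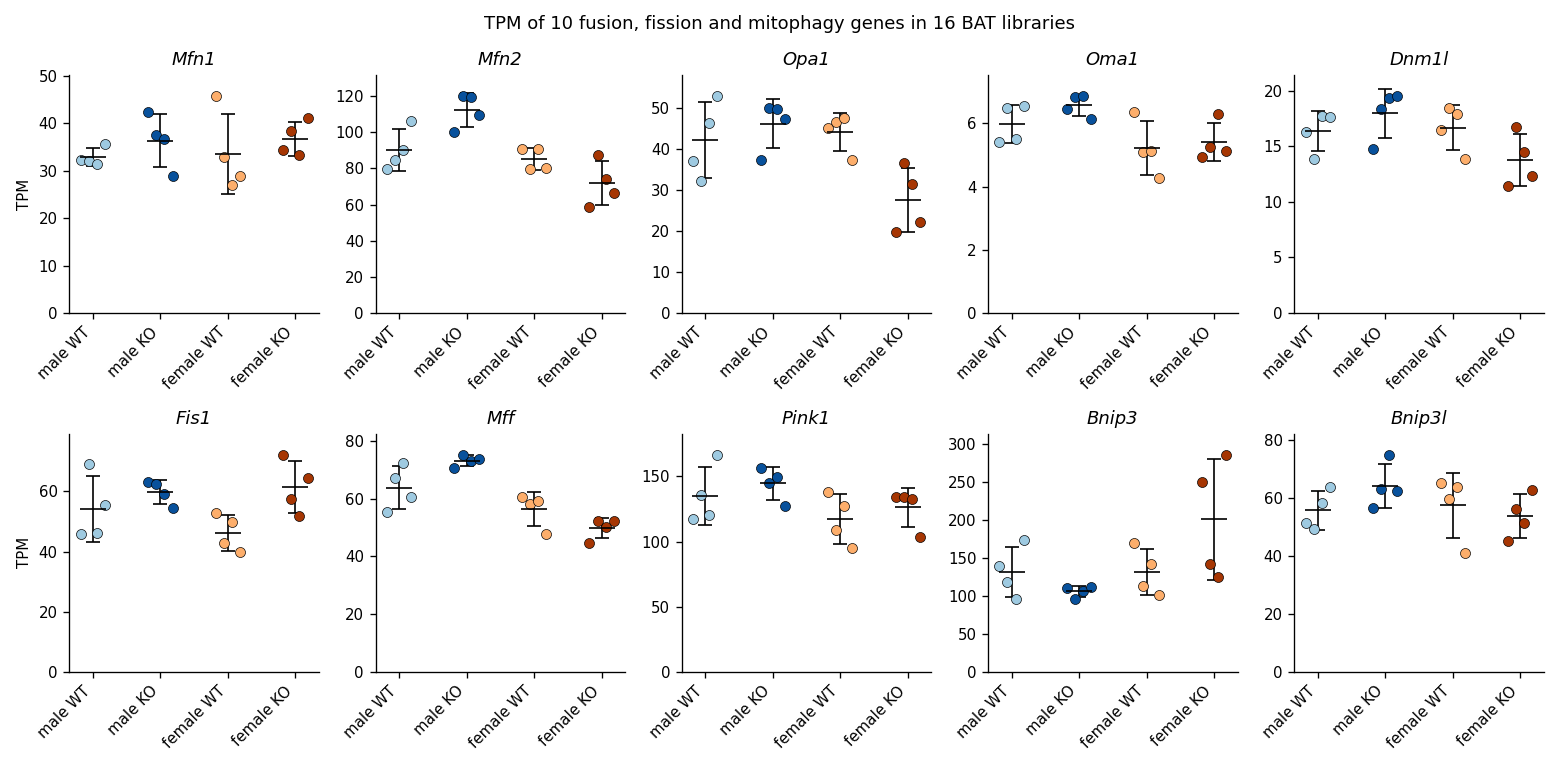
TPM (vertical axes, starting at 0) of the 10 genes in WT and KO libraries of each sex. Points are libraries in replicate order, horizontal marks are means and bars are SD (n = 4). For *Opa1* the 4 female KO libraries lie between 19.9 and 36.6 TPM, all under the female WT libraries (37.5 to 47.6 TPM), while *Bnip3* is at 250 and 285 TPM in female KO 1 and 4 and at 142 and 125 TPM in female KO 2 and 3.

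The first question is whether loss of *Gdf15* in thermogenic adipocytes goes with another level of these genes in females. No member passed the adjusted threshold of 0.05 (limma with Benjamini-Hochberg adjustment over 12141 genes), and neither did any other gene (0%). At an unadjusted p under 0.05 there were 2 members, *Opa1* (lower) and *Fis1* (higher), against 17.1% of all genes tested. *Opa1* was the only member whose WT and KO libraries did not overlap, which held for 8.08% of all genes. Over the 10 members 5 log2 fold changes were above 0 and 5 below (4 and 6 after rescaling by median-of-ratios factors), with a median of -0.01 against 0.10 for all genes tested.

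*Opa1* had 45.1, 46.6, 47.6 and 37.5 TPM in female WT libraries and 19.9, 36.6, 31.5 and 22.2 TPM in female KO libraries. The highest KO library stayed just under the lowest WT library, and KO 1 and KO 4 were the lowest of all 16. The means were 44.2 ± 4.6 TPM (mean ± SD, n = 4) in WT and 27.5 ± 7.85 TPM (mean ± SD, n = 4) in KO, a log2 fold change of -0.71 (SE 0.20, limma adjusted p = 0.231). By unadjusted p it ranked 344 of the genes tested. Over 17 alternatives it ranged from -0.87 to -0.57, with adjusted p from 0.0920 to 0.568, and it was -0.57 without KO 1 and -0.62 without KO 4. Library names begin with a prefix of unstated meaning. Within prefix 10, which holds 1 library of each genotype, the difference was -1.16, and within prefix 8b, with 3 WT and 1 KO library, it was -0.46.

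The mitofusins, which join outer membranes, gave no such separation. *Mfn2* had 90.5, 79.7, 90.7 and 80.4 TPM in female WT and 58.9, 87.7, 73.9 and 66.6 TPM in female KO libraries, so that 3 KO libraries lay under all WT libraries and KO 2 lay among them. The log2 fold change was -0.26 (SE 0.15, adjusted p = 0.386). *Mfn1* had 33.6 ± 8.40 TPM (mean ± SD, n = 4) in WT and 36.7 ± 3.56 TPM (mean ± SD, n = 4) in KO, with its groups overlapping widely. *Oma1*, the protease that cuts OPA1, had 5.22 ± 0.848 TPM (mean ± SD, n = 4) in WT and 5.40 ± 0.609 TPM (mean ± SD, n = 4) in KO. The ratio of *Opa1* to *Oma1*, which does not depend on how a library is scaled, was 8.56 ± 0.995 (mean ± SD, n = 4) in WT and 5.08 ± 1.32 (mean ± SD, n = 4) in KO. As *Oma1* was nearly level, this ratio restates the *Opa1* values.

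Among fission genes, *Fis1*, an outer membrane protein, was the one with higher values in female KO libraries. WT libraries had 52.8, 42.8, 49.7 and 39.7 TPM and KO libraries 72.0, 57.6, 51.8 and 64.6 TPM. KO 3 alone lay inside the WT range. The log2 fold change was 0.41 (SE 0.15, adjusted p = 0.255) and came down to 0.18 once the trend on transcript length was taken out. *Dnm1l*, the GTPase of fission, had 16.5, 18.4, 17.9 and 13.9 TPM in WT and 11.5, 16.7, 14.5 and 12.3 TPM in KO libraries. KO 1 and KO 4 were below every WT library and the others were not, and the log2 fold change was -0.27 (SE 0.15, adjusted p = 0.367). Its adaptor *Mff* had 56.4 ± 5.90 TPM (mean ± SD, n = 4) in WT and 49.8 ± 3.59 TPM (mean ± SD, n = 4) in KO, a log2 fold change of -0.17 (SE 0.13).

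Of the mitophagy genes, *Bnip3* had the widest spread. Female WT libraries had 170, 113, 141 and 102 TPM and KO libraries 250, 142, 125 and 285 TPM. KO 1 and KO 4 were the highest of all 16 libraries, whereas KO 2 and KO 3 lay inside the WT range. The log2 fold change was 0.55 (SE 0.30, adjusted p = 0.357), and it was 0.41 without KO 1 and 0.35 without KO 4. With the prefix as a covariate it was 0.27, but KO 2 and KO 4 share their prefix with no other female library. That value therefore rests on prefixes 10 and 8b, with differences of 0.56 and 0.08. *Bnip3l*, the paralog of *Bnip3*, had 57.5 ± 11.2 TPM (mean ± SD, n = 4) in WT and 53.9 ± 7.57 TPM (mean ± SD, n = 4) in KO. *Pink1*, a kinase that starts mitophagy on damaged mitochondria, had 117 ± 19 TPM (mean ± SD, n = 4) in WT and 126 ± 15 TPM (mean ± SD, n = 4) in KO. The log2 fold changes of both were smaller than their SE.

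The library values of *Opa1* and *Bnip3* can be read together as a ratio. The genes were picked as the lowest and highest of the 10 in females, so the direction of the ratio follows from that choice and is only a description. The ratio of *Bnip3* to *Opa1* was 3.76, 2.42, 2.97 and 2.71 in female WT libraries and 12.6, 3.87, 3.96 and 12.8 in female KO libraries. The 2 high ratios belong to KO 1 and KO 4, and KO 2 and KO 3 were close to WT 1. In males the ratio was 2.06 to 3.74 in WT and 1.90 to 2.94 in KO. Across the 16 libraries Pearson's r between the pair was -0.67 on the log2 scale. This is given as a description, since KO 1 and KO 4 stand apart from all others and all points share the scaling of TPM.

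**Figure D2:**
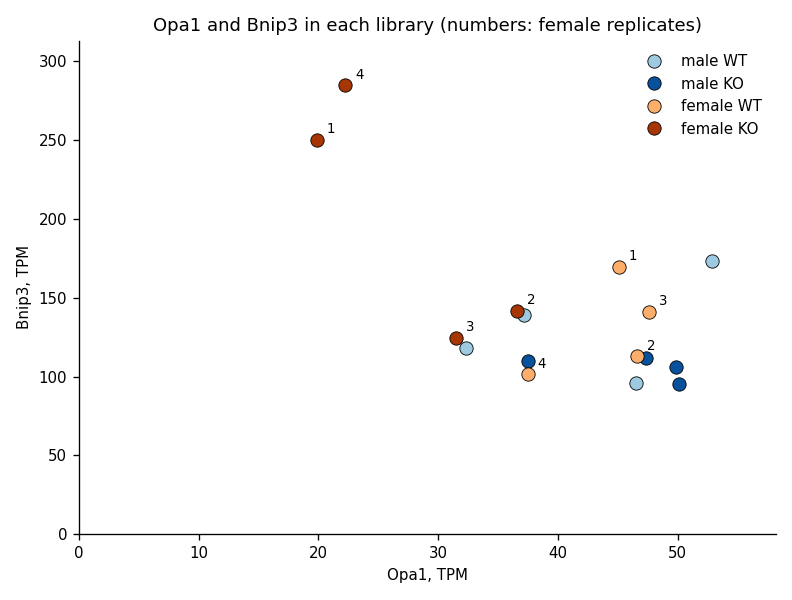
TPM of *Opa1* (horizontal axis) against TPM of *Bnip3* (vertical axis) in the 16 libraries, coloured by sex and genotype, with the replicate number beside female libraries. Female KO 1 and 4 lie alone at 19.9 and 22.2 TPM of *Opa1* and 250 and 285 TPM of *Bnip3*, and female KO 2 and 3 lie among the other libraries for *Bnip3*.

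Several measures varied among the female libraries, some of them with genotype. For 1 of them, the log2 level of each gene was taken as its deviation from its own mean over the 16 libraries. The median deviation of long genes (at least 4000 bases) minus that of short genes (at most 1000 bases) was then formed per library. It ran from -0.01 to 0.49 in WT and from -0.30 to -0.07 in KO libraries. The median log2 fold change went from 0.24 for genes with transcripts of at most 1000 bases to -0.09 for those of at least 4000 bases. *Opa1* transcripts average 4511 bases and *Fis1* transcripts 796 bases, weighted by TPM. With the length trend taken out, *Opa1* was at -0.69 and *Bnip3* at 0.39, beside -0.71 and 0.55 in the main fit. That trend is an average over all genes, and the part of transcript length in the values of single genes was not tested. The summed level of 9 endothelial markers was 222 to 345 TPM in WT and 365 to 734 TPM in KO, highest in KO 1 and KO 4. Brown adipocyte markers had 21110 TPM in KO 1 and 20929 TPM in KO 4, the highest values in females. KO 2 (17589 TPM) and KO 3 (13955 TPM) lay inside the WT range of 11195 to 17621 TPM. Skeletal muscle markers varied from 2.99 to 5246 TPM over both groups, highest in KO 3. No marker of these lists was at 0 in all libraries of a group, and their part in the results was not tested.

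In males, the same question had another set of values. No member passed the adjusted threshold, as against 0.00821% of 12176 genes (1 gene). At an unadjusted p under 0.05 there was 1 member, *Mfn2*, against 18.7% of all genes, and no member had groups that did not overlap, against 10.2% of all genes. The log2 fold change was above 0 for 9 members and below 0 for *Bnip3*, with a median of 0.14 against 0.16 for all genes tested. Median-of-ratios scaling brought the median of all genes to 0.00 and left 3 members above 0 (*Mfn2*, *Mff* and *Bnip3l*), so the direction of the other 6 depended on the scaling.

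*Mfn2* had 79.9, 84.8, 90.1 and 106 TPM in male WT and 100, 120, 120 and 110 TPM in male KO libraries. Only WT 4 reached into the KO range. The means were 90.2 ± 11.5 TPM (mean ± SD, n = 4) and 112 ± 9.33 TPM (mean ± SD, n = 4), a log2 fold change of 0.32 (SE 0.12, adjusted p = 0.223). It was 0.15 under median-of-ratios scaling and 0.13 without the length trend. *Mff* had 63.9 ± 7.42 TPM (mean ± SD, n = 4) in WT and a narrow 73.2 ± 1.90 TPM (mean ± SD, n = 4) in KO, a log2 fold change of 0.20 (SE 0.10, adjusted p = 0.311).

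*Opa1* had 37.2, 32.3, 46.5 and 52.9 TPM in male WT and 37.5, 50.1, 49.9 and 47.3 TPM in male KO libraries, which overlapped throughout. The log2 fold change was 0.14 (SE 0.17, adjusted p = 0.650). *Bnip3* had 139, 118, 96.0 and 174 TPM in WT and 110, 95.2, 106 and 112 TPM in KO libraries. Here the KO libraries were close together and WT 4 was the highest, with a log2 fold change of -0.28 (SE 0.17, adjusted p = 0.383). *Fis1* (54.2 ± 11 and 59.8 ± 3.96 TPM), *Dnm1l* (16.4 ± 1.82 and 18 ± 2.2 TPM), *Mfn1* (32.8 ± 1.94 and 36.3 ± 5.57 TPM), *Oma1* (5.99 ± 0.605 and 6.57 ± 0.335 TPM), *Pink1* (135 ± 22.3 and 145 ± 12.6 TPM) and *Bnip3l* (55.7 ± 6.69 and 64.2 ± 7.62 TPM) are given as WT and KO means with SD (n = 4 each), and their log2 fold changes lay between 0.11 and 0.20. In these libraries macrophage markers summed to 48.2 to 96.3 TPM in WT and 123 to 180 TPM in KO, and fibroblast markers to 120 to 209 TPM and 255 to 268 TPM. Their part in the values of the members was not tested.

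**Figure D3:**
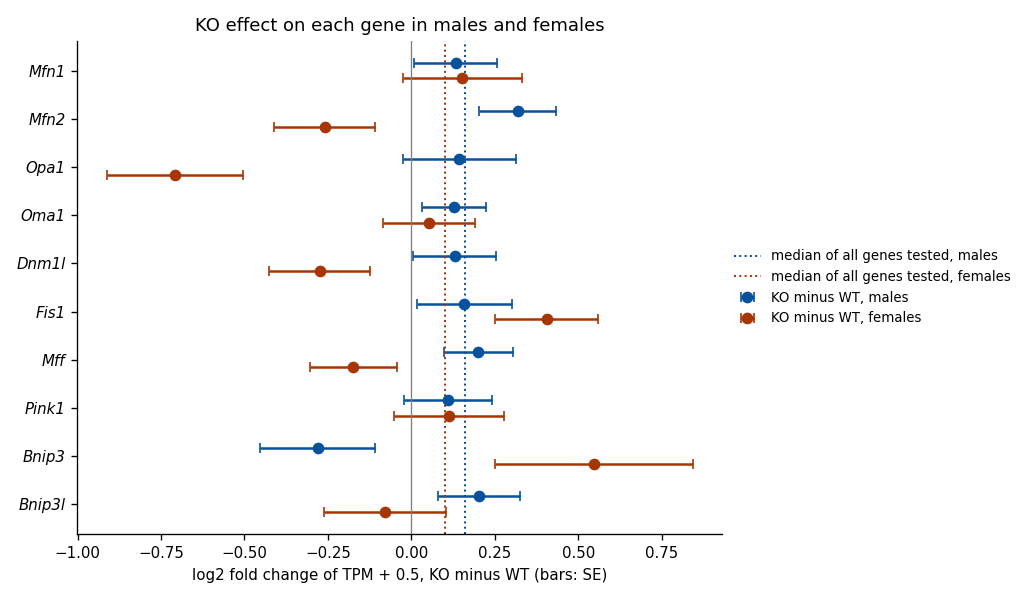
Log2 fold change of TPM + 0.5, KO minus WT (horizontal axis), of each gene in males (blue) and females (brown), with bars for the SE and dotted lines for the median of all genes tested (0.16 and 0.10). *Opa1* and *Bnip3* lie on opposite sides of 0 in the sexes, at 0.14 and -0.71 and at -0.28 and 0.55.

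A model with an interaction of sex and genotype asked whether males and females differed in the KO effect. No member passed the adjusted threshold, and no gene of 12210 did (0%). At an unadjusted p under 0.05 there were 4 members, *Opa1*, *Mfn2*, *Mff* and *Bnip3*, against 14.2% of all genes. The male effect minus the female effect was 0.85 for *Opa1* (SE 0.27, limma adjusted p = 0.218), 0.58 for *Mfn2* (SE 0.18, adjusted p = 0.218) and 0.37 for *Mff* (SE 0.15, adjusted p = 0.283). For *Bnip3* it was -0.83 (SE 0.36, adjusted p = 0.321). These 4 kept their sign in all 24 alternatives, with ranges of 0.66 to 1.002 for *Opa1*, 0.39 to 0.71 for *Mfn2*, 0.31 to 0.45 for *Mff* and -1.03 to -0.63 for *Bnip3*. *Pink1* was at -0.00 (SE 0.21), and *Mfn1* at -0.02 (SE 0.22).

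Averaged over both sexes, no member passed, against 2.93% of 12210 genes (358 genes). At an unadjusted p under 0.05 there was 1 member, against 24% of all genes. It was *Fis1*, with a log2 fold change of 0.28 (SE 0.10, adjusted p = 0.120). Within the sexes it was at 0.16 in males and 0.41 in females, beside medians of 0.16 and 0.10 for all genes tested. The male value thus did not stand out from the shift of all genes. Without male WT 2, where *Fis1* was highest among males at 69.2 TPM, *Fis1* was at 0.34 with an adjusted p of 0.0382. Leaving out that library also took the number of genes past the threshold from 358 to 1060 of 12210. For *Fis1*, adjusted p ranged from 0.0382 to 0.398 over its alternatives. Median-of-ratios scaling brought the effect to 0.14, and to -0.014 in males alone. *Opa1* was at -0.28 (SE 0.14, adjusted p = 0.220).

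Male and female WT mice were compared to see whether the sexes start from the same level. No member passed, against 0.0664% of 12042 genes (8 genes). No member had an unadjusted p under 0.05 or groups that did not overlap, against 3.42% and 1.92% of all genes. The male minus female log2 differences lay between -0.08 (*Opa1*) and 0.21 (*Fis1*). WT males and WT females share no library prefix, so prefix and sex cannot be told apart here.

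The gene values add up transcripts of unlike kinds. For *Bnip3l*, protein-coding transcripts held 30.4% of the TPM. The processed transcripts Bnip3l-205 (789 bases) and Bnip3l-204 (354 bases) held 37.7% and 29.0%, and the coding Bnip3l-201 (3238 bases) 29.3%. For *Mfn1* the coding share was 57.7%, and Mfn1-210, a retained intron of 246 bases, held 37.2%. For *Dnm1l* it was 86.6%, for *Mff* 91.8% and for *Oma1* 92.6%, and for the other 5 members it was at least 96.8%. Short transcripts weigh heavily in TPM because reads are divided by length.

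Coding transcripts alone were also counted, an alternative chosen after the values were seen. In females *Dnm1l* then had 15.2 ± 1.76 TPM (mean ± SD, n = 4) in WT and 10.4 ± 2.54 TPM (mean ± SD, n = 4) in KO, with WT between 13.2 and 17 TPM and KO between 7.38 and 13.1 TPM. Its log2 fold change became -0.55 (adjusted p = 0.182) and its interaction 0.76 (adjusted p = 0.162). *Mfn1* in females went from 0.15 to -0.23 (adjusted p = 0.398), with 20.4 ± 2.85 TPM (mean ± SD, n = 4) in WT and 17.3 ± 1.94 TPM (mean ± SD, n = 4) in KO. *Oma1* in males went from 0.13 to 0.28 (adjusted p = 0.186). *Bnip3l* in males went from 0.20 to 0.31 (adjusted p = 0.168), with coding values of 14.3 to 18.1 TPM in WT and 18.8 to 21.3 TPM in KO. On this count the groups did not overlap for *Bnip3l* in males, against 12% of all genes, and for *Opa1* and *Dnm1l* in females, against 8.85%.

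**Figure D4:**
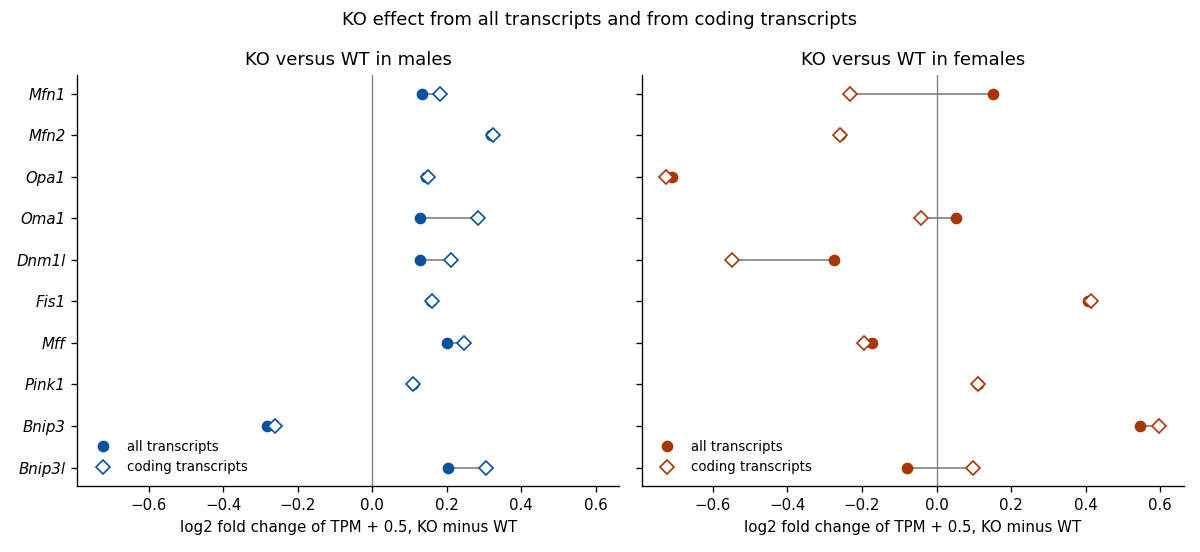
Log2 fold change of TPM + 0.5, KO minus WT (horizontal axes), from all transcripts (filled circles) and from protein-coding transcripts (open diamonds) of each gene, in males (left) and females (right). In females *Mfn1* crosses 0, from 0.15 to -0.23, and *Dnm1l* goes from -0.27 to -0.55, while *Opa1* stays at -0.71 and -0.73.

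The make-up of the members was compared as the share of each transcript in the TPM of its gene, for 23 transcripts with a mean share of 10 to 90%. In males no share separated KO from WT, against 4.23% of 20246 transcripts of all genes. In females 5 shares did, against 8.83%. They include Pink1-201 and Pink1-202, which together make up most of the same gene, so their shares are not independent. Some separations were narrow. For Pink1-201 the highest KO share was 73.22% and the lowest WT share 73.24%. For Bnip3-201 the lowest KO share was 91.5% and the highest WT share 90.2%. Dnm1l-206, a retained intron, had 14.5, 8.00, 8.67 and 4.47% of the *Dnm1l* TPM in WT and 35.7, 21.2, 19.4 and 24.2% in KO libraries. Thus the non-coding part of *Dnm1l* was larger in all KO libraries, most in KO 1. The shorter coding transcript Pink1-202 (1465 bases) had 14.3 ± 3.19% (mean ± SD, n = 4) of the *Pink1* TPM in WT and 31.9 ± 10.6% (mean ± SD, n = 4) in KO, and the longer Pink1-201 (2375 bases) 80.4 ± 8.18% (mean ± SD, n = 4) and 66.0 ± 8.42% (mean ± SD, n = 4). In TPM, Pink1-202 had 9.22 to 23 in WT and 28.8 to 61.9 in KO libraries. Pink1-201 had 85.5 to 101 TPM in WT, and of the KO libraries KO 2 (93.8 TPM) and KO 3 (97.3 TPM) lay inside that range and KO 1 (72.7 TPM) and KO 4 (69.4 TPM) below it. Opa1-206, the longest *Opa1* transcript listed (6230 bases), had 41.8 ± 4.01% (mean ± SD, n = 4) in WT and 51.7 ± 3.46% (mean ± SD, n = 4) in KO. Bnip3-201 had 81.6 ± 12.3% (mean ± SD, n = 4) in WT and 93.7 ± 1.54% (mean ± SD, n = 4) in KO, with WT 4 at 63.4%. Shares of transcripts that overlap each other are estimates by the quantification and not direct counts.

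**Figure D5:**
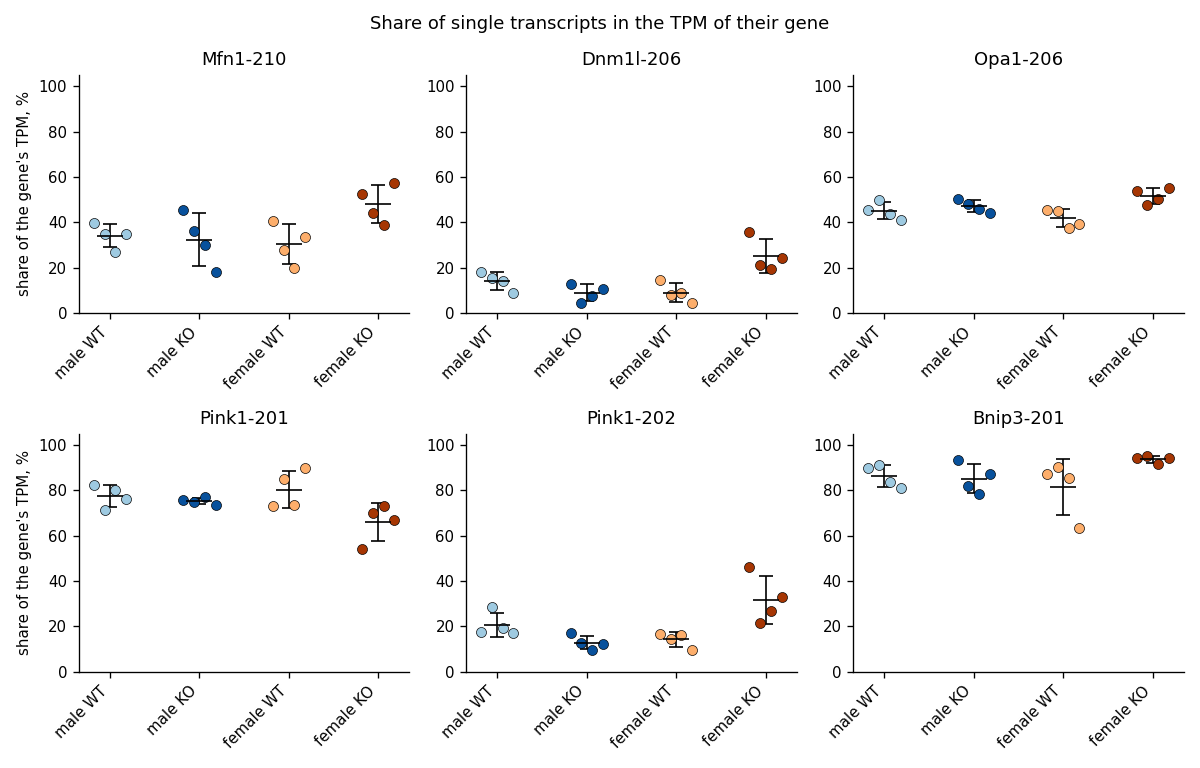
Share of a transcript in the TPM of its gene in percent (vertical axes) for 6 transcripts, in WT and KO libraries of each sex. Points are libraries in replicate order, horizontal marks are means and bars are SD (n = 4), and female KO libraries lie above all female WT libraries for Dnm1l-206, Opa1-206, Pink1-202 and Bnip3-201, and below them for Pink1-201, but not for Mfn1-210.

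Over the 16 libraries, the gene whose log2 level was most like a member was named for 9 members, as a description. For *Opa1* it was *Dld*, a subunit shared by mitochondrial dehydrogenase complexes (Pearson's r = 0.98), and for *Mfn2* it was *Plin1*, a lipid droplet coat protein (r = 0.99). *Dnm1l* was most like *Heca* (r = 0.97) and *Fis1* most like *Krtcap2* (r = 0.97). For *Mff*, *Bnip3l*, *Oma1*, *Pink1* and *Mfn1* these were *Sgcb* (r = 0.93), *Tmem41b* (r = 0.92), *Asnsd1* (r = 0.90), *Ash2l* (r = 0.89) and *Rem1* (r = 0.82). Among members, the closest pair was *Opa1* and *Dnm1l* (r = 0.93). The libraries share their scaling. Transcript lengths, weighted by TPM, were alike within some pairs (796 and 644 bases for *Fis1* and *Krtcap2*) and unlike within others (4180 and 1763 bases for *Mfn2* and *Plin1*, 4511 and 2290 bases for *Opa1* and *Dld*).

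The machinery around these members was followed in lists written from known roles, where a call is an adjusted p under 0.05. Of 23 partners of fission and motility, 19 were tested in females and 20 in males, and none was called. Median log2 fold changes were 0.21 in males and -0.08 in females, beside 0.16 and 0.10 for all genes tested. Of the 19 in females, 6 were above 0 and 13 below, and *Inf2* had the lowest p among those above (0.54, adjusted p = 0.275). In females *Spire1*, which links actin to fission sites, had 6.76 ± 0.236 TPM (mean ± SD, n = 4) in WT and 4.32 ± 0.945 TPM (mean ± SD, n = 4) in KO (log2 fold change -0.61, adjusted p = 0.231), and *Trak2*, a motor adaptor for mitochondria, 12.8 ± 0.928 and 8.6 ± 1.89 TPM (-0.57, adjusted p = 0.231). None of 17 inner membrane proteases and prohibitins and none of 15 genes of cristae organisation (MICOS and ATP synthase dimers) was called in either sex, with female medians of -0.05 and 0.19. Of the 15 cristae genes in females, 11 were above 0 and 4 below. Among those above, *Chchd2* (0.42, adjusted p = 0.349) and *Atp5k* (0.45, adjusted p = 0.363) had the lowest p. *Immt*, the core of MICOS, was at 0.26 in males (adjusted p = 0.288) and -0.27 in females (adjusted p = 0.365).

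On the mitophagy side, none of 20 tested genes of the PINK1 route was called. Of these in females, 11 were above 0 and 9 below, and the lowest p was that of *Sqstm1* (0.59, adjusted p = 0.299). *Vdac1*, an outer membrane channel that is ubiquitinated in this route, had 155 ± 19.6 and 210 ± 18 TPM in male WT and KO (0.44, adjusted p = 0.173) and 143 ± 16.4 and 120 ± 33.8 TPM in female WT and KO (-0.29, adjusted p = 0.476), SD over 4 libraries each. None of 13 tested genes of receptor mitophagy was called, with medians of 0.18 in males and -0.12 in females. In males 13 were above 0 and 0 below, and in females 5 were above and 8 below. The medians of all genes tested were 0.16 and 0.10, and 9 of the 13 in males and 5 in females lay above them. *Bcl2l1*, an inhibitor of apoptosis that binds mitophagy receptors, was at 0.57 in males (adjusted p = 0.165) and 0.50 in females (adjusted p = 0.363). The lowest p in females were those of *Fbxl4* (-0.32, adjusted p = 0.279) and *Bcl2l13* (-0.34, adjusted p = 0.289). Of 30 genes of the autophagosome core, 1 was called in the mean over both sexes, beside 2.93% of all genes, and none within a sex. It was *Atg9a*, the membrane scramblase of autophagosomes, which rose by 0.33 on the log2 scale (SE 0.08, adjusted p = 0.0487). The call was lost in 20 of 24 alternatives, under median-of-ratios scaling among them (0.20, adjusted p = 0.147).

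*Bnip3* is one of the genes that HIF-1 induces, and 17 other known HIF-1 targets and regulators were listed. Of 16 tested, 2 were called in the mean over both sexes, beside 2.93% of all genes, and none within a sex. *Adm*, the vasodilator adrenomedullin, rose by 0.76 on the log2 scale (SE 0.12, adjusted p = 0.0112). It had low levels of 1.79 ± 0.191 and 3.73 ± 0.869 TPM in male WT and KO and 1.18 ± 0.337 and 2.10 ± 0.246 TPM in female WT and KO (mean ± SD, n = 4 each). WT and KO did not overlap in either sex, a separation that 10.2% of tested genes showed for males and 8.08% for females. *Adm* is named here for its small p in these same libraries, so that separation is no independent evidence. Adjusted p for *Adm* stayed between 0.00170 and 0.0427 in all 24 alternatives. *Ddit4*, an inhibitor of mTORC1, rose by 0.93 (SE 0.22, adjusted p = 0.0370), at 9.65 ± 4.26 and 19.3 ± 3.25 TPM in males and 6.75 ± 1.6 and 13.1 ± 5.99 TPM in females (mean ± SD, n = 4 each). That call was lost in 15 of 24 alternatives, among them median-of-ratios scaling (0.79, adjusted p = 0.0607) and leaving out female KO 4 (0.83, adjusted p = 0.0784). The median of the list was 0.40 in males and 0.37 in females, beside 0.16 and 0.10 for all genes tested. Above those medians of all genes lay 14 of the 16 in males and 9 in females. In females 10 of the 16 were above 0 and 6 below, and the lowest p among the latter was that of *Pdk1*, the kinase that holds back pyruvate dehydrogenase, at -0.99 (adjusted p = 0.231), with 24.5 ± 1.8 TPM (mean ± SD, n = 4) in WT and 13 ± 5.84 TPM (mean ± SD, n = 4) in KO. In males 15 were above 0 and 1 below, while *Bnip3* was at -0.28.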

How the data were processed

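Bulk RNA sequencing of BAT from 16 mice (8 of each sex, 4 WT and 4 KO) was re-analysed, and sex, genotype and replicate were taken from the labels. The authors prepared TruSeq stranded mRNA libraries, sequenced single-end reads and quantified them with kallisto 0.46.2 (build GRCm39, per the submitters' processing notes). The strand setting and annotation release are not given in the sources used here. The deposited values are transcript TPM, scaled by the authors to a fixed sum per library, which hides the depth, and no counting error can be stated. The authors tested with DESeq2, which needs counts and was not run.

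Of 137438 transcripts, 135051 matched GENCODE mouse release 21 by identifier without version, and TPM were summed per symbol. No gene coordinates are given, since the builds differ. Genes averaging at least 1 TPM over the libraries compared were tested with limma 3.58.1 (R 4.3.3; lmFit, eBayes with a trend) on log2(TPM + 0.5), a scale that understates changes of low genes, with Benjamini-Hochberg adjustment over all genes tested and a threshold of 0.05. Only the fit for KO versus WT in males was run on simulated data, with independent errors, and the other fits were not. Alternatives were a pseudocount of 1, no minimum, median-of-ratios scaling, removal of mitochondrial transcripts, a replicate block, the library prefix as a covariate, 1 fit over 16 libraries and leaving out each library. Coding transcripts only and removal of a trend on transcript length were added after the values were seen.

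The members and lists were chosen with earlier results of these data known. Named are the members, per list and comparison up to 2 genes of smallest p in each direction, and the gene most correlated with each member. Results that need withheld genes are not reported here. *Ppptc7* was not found by symbol. No protein sequences were used here.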

Additional observations from a re-analysis of the deposited data

Results flagged for a closer look

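In 40 groups of 4 libraries, 2 member values stood apart from the other 3 by Dixon's criterion at the 95% level, and chance flags about 1 in 20 groups. *Mfn1* in male WT 4 had 35.7 TPM, above 3 libraries at 31.4 to 32.1 TPM. *Pink1* in female KO 4 had 104 TPM, below 3 libraries at 133 to 135 TPM. The same library had the highest *Bnip3* of all 16.

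Transcripts without a match in the annotation held 17.7% of the TPM in female WT 4 and at most 0.48% in any other library, and a single identifier held 16.5%. The same library had the lowest share of mitochondrial transcripts, 34.5%. Leaving this library out gave -0.79 for *Opa1* (adjusted p = 0.332) and 0.43 for *Bnip3* (adjusted p = 0.511) in females.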

How the results depend on the processing

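Of 50 member results, 24 kept their direction in every alternative run, and of 980 alternative values 89 lay on the other side of 0, mostly for members with effects near 0. Of the 980, 1 passed the adjusted threshold (*Fis1* in the mean over both sexes, without male WT 2). The cause of these moves was not tested. Depth is not recorded in TPM, so no limit from it can be given.

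The number of genes past the adjusted threshold over all genes varied. In males it was 1, against 0 without a TPM minimum, 7 under median-of-ratios scaling, 6 without mitochondrial transcripts, 6 with the library prefix, 40 in 1 fit over 16 libraries, 18 with coding transcripts and 5 without the length trend. In females it was 0, against 8 with the prefix and 5 in 1 fit over 16 libraries. In the mean over both sexes it was 358, against 55 without a TPM minimum, 12 with the prefix and 719 with coding transcripts. For male against female WT it was 8, against 4 with coding transcripts. Leaving out 1 library at a time gave 0 to 5 in males, 0 to 9 in females, 42 to 1060 in the mean over both sexes (1060 without male WT 2 and 42 without male KO 2), 0 to 3 for the difference between the sexes and 5 to 10 for male against female WT. The prefix could not be fitted for male against female WT. Within a sex, effects with the prefix as a covariate rest only on prefixes that hold both genotypes, 9 in males and 10 and 8b in females.

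Replicate numbers did not pair the libraries: the deviations of libraries with the same number correlated at 0.19, -0.08, 0.04 and 0.35 in males and 0.15, -0.12, -0.08 and 0.06 in females. With the number as a replicate block, 0 genes passed in males, 1 in females and 60 in the mean over both sexes, and *Opa1* in females had an adjusted p of 0.183. The block changed no call of a member.

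With coding transcripts only the direction turned in females *Bnip3l* (0.10), *Mfn1* (-0.23) and *Oma1* (-0.041), in the mean over both sexes *Mfn1* (-0.025), in the difference between the sexes *Mfn1* (0.42) and in male against female WT *Bnip3* (0.026) and *Bnip3l* (0.013). With the library prefix as a covariate the direction turned in males *Opa1* (-0.015) and *Pink1* (-0.013), in females *Mfn1* (-0.058), in the mean over both sexes *Bnip3* (-0.086), *Bnip3l* (-0.031) and *Mff* (-0.018) and in the difference between the sexes *Mfn1* (0.091). Under median-of-ratios scaling the direction turned in males *Dnm1l* (-0.040), *Fis1* (-0.014), *Mfn1* (-0.039), *Oma1* (-0.033), *Opa1* (-0.029) and *Pink1* (-0.064), in females *Oma1* (-0.043) and in the mean over both sexes *Bnip3* (-0.0055), *Bnip3l* (-0.076), *Mff* (-0.12), *Mfn2* (-0.11), *Oma1* (-0.037) and *Pink1* (-0.028). Without the transcript length trend the direction turned in males *Dnm1l* (-0.073), *Mfn1* (-0.069), *Oma1* (-0.067), *Opa1* (-0.038) and *Pink1* (-0.10), in females *Oma1* (-0.10) and *Pink1* (-0.0066) and in the mean over both sexes *Bnip3* (-0.038), *Bnip3l* (-0.11), *Mff* (-0.16), *Mfn1* (-0.021), *Mfn2* (-0.066), *Oma1* (-0.078) and *Pink1* (-0.050). Without mitochondrial transcripts the direction turned in females *Oma1* (-0.091) and *Pink1* (-0.042), in the mean over both sexes *Bnip3l* (-0.068), *Mff* (-0.12), *Mfn2* (-0.10), *Oma1* (-0.030) and *Pink1* (-0.019) and in the difference between the sexes *Mfn1* (0.028) and *Pink1* (0.045). Leaving out 1 library at a time turned the direction in females *Bnip3l* (-0.23 to 0.0025) and *Oma1* (-0.028 to 0.14), in the mean over both sexes *Bnip3l* (-0.014 to 0.10), *Mff* (-0.025 to 0.045) and *Mfn2* (-0.021 to 0.074), in the difference between the sexes *Mfn1* (-0.18 to 0.085), *Oma1* (-0.016 to 0.16) and *Pink1* (-0.094 to 0.10) and in male against female WT *Bnip3* (-0.15 to 0.14), *Bnip3l* (-0.18 to 0.040), *Dnm1l* (-0.11 to 0.052), *Mfn1* (-0.10 to 0.15), *Mfn2* (-0.0058 to 0.13) and *Opa1* (-0.20 to 0.035), each with its lowest and highest value.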
